A study of Mus musculus with 20 samples.

Results

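The AP-1 and EGR genes followed here are 10 mouse genes, taken by symbol and matched to their Ensembl gene identifiers: the JUN genes Jun, Junb and Jund, the FOS genes Fos, Fosb and Fosl2, the EGR genes Egr1, Egr2 and Egr3, and Ier2. All 10 were found among the 56239 genes counted, and all 10 passed the filter of 10 or more counts in 2 or more libraries, which left 16601 genes to test. AP-1 is a dimer of leucine zipper proteins, in which a JUN protein pairs with itself, with a FOS protein or with a member of the ATF, BATF or MAF families, and binds the sequence TGANTCA. EGR proteins are zinc finger factors that bind GC-rich sites such as GCGNGGGCG. Many genes of both families, though not all, are immediate early genes, switched on within minutes by serum, stress or antigen receptor signalling. These signals run through kinases of the ERK, JNK and p38 pathways acting on SRF, ELK and CREB factors already bound at the promoters. In developing B cells the pre-B cell receptor signals through the same pathways.

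The cells were B3, a mouse pre-B cell line, transduced with a retrovirus carrying Ikaros-ERt2 and sorted as a population, where the fusion is IKZF1 joined to a modified hormone-binding domain of the estrogen receptor. IKZF1 is a lymphoid zinc finger factor, and the fusion protein enters the nucleus when 4-hydroxytamoxifen (4-OHT) is added. RNA bound to chromatin, which is rich in transcripts still being made, was sequenced before treatment (0 h, no agent) and 30 min, 1 h, 2 h, 6 h, 12 h, 15 h, 18 h, 21 h and 24 h after 500 nM 4-OHT was added. The 10 time points had 2 replicates each. All groups carried the fusion gene, and no untreated or vehicle series ran alongside, so that IKZF1 entry, 4-OHT itself and time in culture cannot be told apart. The labels do not say whether replicates are separate cultures, so the p-values measure only the spread between these samples, which may be technical.

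The 20 libraries held 33296158 to 46868954 counts, with a median of 40943260, and the resulting intervals cover counting error only. Same-time replicates differed by 1.26 to 2.58 times sampling noise (chi-square per degree of freedom), except at 12 h, 18 h and 21 h, with 9.95, 14.9 and 4.78. Pre-B markers summed to 8344 to 16557 CPM (counts scaled to library size with edgeR's TMM factors), with Rag1 at 0 in every library. Most of the sum was Ebf1 and Pax5, at 9793 ± 53.1 and 1074 ± 1.54 CPM at 0 h, and it hides shifts within the list. Of 11 pre-B markers tested, 6 were higher and 2 lower at 24 h by the calling rule given below. Igll1 moved from 169 to 0.985 CPM, Vpreb1 from 17.6 to 0.37 CPM and Blnk from 25.1 to 512 CPM. Summed T cell markers lay at 0.19 to 0.705 CPM, myeloid markers at 0.194 to 1.62 CPM with Itgam at 0, erythroid markers at 0.156 to 0.654 CPM with Hbb-bs at 0, and NK cell markers at 0.157 to 1.9 CPM. From 0 h to 24 h the NK sum moved from between 0.194 and 0.225 to between 1.4 and 1.9 CPM (Klrb1c and Prf1, with Ncr1 at 2 counts or fewer) and the myeloid sum from between 1.4 and 1.62 to between 0.328 and 0.543 CPM. The part of these shifts in the results was not tested. Ikzf1 itself, where endogenous and introduced transcripts cannot be separated, stood at 4842 ± 4.43 CPM at 0 h, 4970 ± 28.6 CPM at 30 min and 8804 ± 599 CPM at 24 h (SD, n = 2).

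Promoter sequence of 7 of the 10 genes was taken from a table of RefSeq promoters (GRCm38). The 250 bases before each start site were searched on both strands. Egr1, Egr3 and Ier2 had no entry used here. The motifs were TGANTCA, bound by AP-1, TGACGTCA, bound by CREB and ATF factors, GCGNGGGCG, bound by EGR factors, TGGGAA, a core bound by IKZF1, and the CArG box, bound by SRF, and no match of one motif overlapped another. The sites found are shown for the genes whose transcription is described next, with the matched letters in capitals and 25 bases on each side in lower case, 5′ to 3′ on the strand of the gene. Egr2 has 5 annotated start sites, and 2 different CArG boxes lay before 4 of them.
Egr2, chr10:67537469-67537528, plus strand: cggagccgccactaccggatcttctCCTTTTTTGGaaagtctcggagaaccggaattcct
Egr2, chr10:67537772-67537831, plus strand: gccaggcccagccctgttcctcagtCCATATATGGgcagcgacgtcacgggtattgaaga
Fosb, chr7:19310062-19310120, minus strand: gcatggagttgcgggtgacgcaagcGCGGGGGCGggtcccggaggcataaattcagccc
Jun, chr4:95052253-95052308, minus strand: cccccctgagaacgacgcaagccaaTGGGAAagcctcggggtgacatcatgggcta
Jund, chr8:70697527-70697582, plus strand: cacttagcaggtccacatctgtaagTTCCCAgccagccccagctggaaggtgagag
The Jund match reads on the opposite strand. GCGNGGGCG was also matched in the window of Fosl2, and no match to any of the 5 motifs was found in the windows of Fos and Junb. Of 32536 windows of 250 bases in the table, 6.73% held TGANTCA, 1.56% TGACGTCA, 4.74% GCGNGGGCG, 21.6% TGGGAA and 1.48% a CArG box. The matches are descriptions of these letters, and binding was not measured here.

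Before 4-OHT the genes were transcribed at low levels that spanned a wide range. Levels are compared between genes as CPM per kb of gene span, since intronic reads were counted. Exons cover the whole span of Jun, Jund and Ier2, but 9680 of 22042 bases in Fosl2 and 3398 of 6714 in Egr2. Reads were not split between exons and introns, so the part of gene structure in the order was not tested. At 0 h the order was Ier2 at 2.66 ± 0.25, Junb at 0.699 ± 0.072, Jund at 0.661 ± 0.018, Jun at 0.55 ± 0.00143, Fosl2 at 0.401 ± 0.0229, Fosb at 0.189 ± 0.00553, Egr3 at 0.183 ± 0.0177, Egr1 at 0.14 ± 0.0503, Egr2 at 0.131 ± 0.0287 and Fos at 0.0651 ± 0.00731 CPM per kb (SD, n = 2). Replicates of Junb and Jund overlapped, as did those of Fosb and Egr3, of Egr3 and Egr1 and of Egr1 and Egr2, while other neighbours in the order did not overlap. By 24 h the order had become Jund at 4.12 ± 0.0694, Junb at 1.48 ± 0.0863, Fosl2 at 1.32 ± 0.0625, Jun at 1.29 ± 0.0148 and Ier2 at 1.2 ± 0.0916 CPM per kb. Fosb at 0.14 ± 0.0367, Egr1 at 0.1 ± 0.0378, Fos at 0.0581 ± 0.0199, Egr2 at 0.0578 ± 0.0188 and Egr3 at 0.013 ± 0.00285 CPM per kb followed. Replicates of Fosl2 and Jun, of Fosb and Egr1 and of Fos and Egr2 overlapped at 24 h. Over the longer span from its RefSeq start, Jund would be at 0.382 CPM per kb at 0 h, below Jun and Fosl2, and at 2.39 at 24 h. Egr3, level with Fosb at 0 h, was the lowest of the 10 at 24 h, and Jund the highest.

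**Figure D1:**
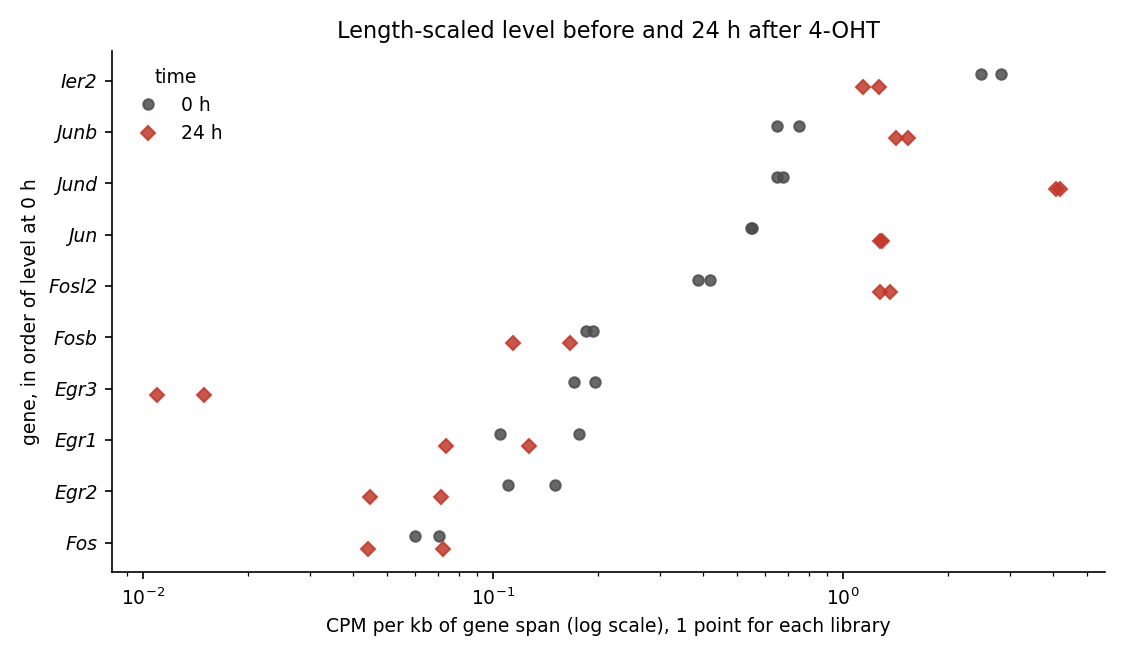
Level of each gene in CPM per kb of gene span (log scale) in the 2 libraries at 0 h (circles) and the 2 at 24 h (diamonds), with genes in order of their level at 0 h. Jund moved from 0.661 to 4.12 CPM per kb and Egr3 from 0.183 to 0.013, while the points of Fos and Egr1 overlap between the times.

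A gene was called at a time point when edgeR's quasi-likelihood test against 0 h gave an adjusted p-value (Benjamini-Hochberg) below 0.01 and the level differed by more than 2-fold. The thresholds are those of the study. All comparisons share the 0 h libraries. At 30 min 0 of the 10 genes were called by edgeR, with 4 at an unadjusted p-value under 0.05. Of all genes tested, 0.0542% were called higher and 0.41% lower. DESeq2's test also called 0 at 30 min, but it gave no adjusted p-value for Fos, Fosb, Egr1, Egr2 and Egr3, which it therefore could not call. At 1 h 3 genes were called, all of them lower (Egr1, Egr3 and Ier2), where 2.33% of all genes were higher and 4.84% lower. At 2 h 3 were called, again all lower (Jun, Egr3 and Ier2), against 6.25% and 6.91% of all genes. The median log2 fold change of the 10 genes was -0.71 at 1 h and -0.89 at 2 h, beside 0.02 and 0.03 over all genes tested. All 10 values were below 0 at both times, but that of Junb at 1 h was at -0.00 and turned to 0.11 without replicate 2 at 0 h, and that of Jund at 2 h turned from -0.06 to 0.07 without replicate 1 at 2 h.

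From 6 h on, calls in both directions stood side by side. At 6 h Jund was higher and Egr3 lower, beside 10.9% of all genes higher and 9.13% lower. At 12 h 1 gene was higher and 4 lower (13.2% and 9.92% of all genes), at 15 h 1 and 4 (15.3% and 13.1%) and at 18 h 1 and 3 (19.1% and 17.6%). At 21 h 2 were higher and 5 lower (20.1% and 19.4%), and at 24 h 4 were higher and 3 lower (20% and 20.1%). The 4 genes higher at 24 h were Jun, Junb, Jund and Fosl2, and the 3 lower were Egr2, Egr3 and Ier2. When libraries were scaled by their totals alone, Jund and Fosl2 were higher and the same 3 genes lower at 24 h. Of all calls at 24 h the share higher was then 37.9% against 50%, and at 21 h 39.6% against 51%, since the median log2 fold change of all genes shifted to -0.27 and -0.24.

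**Figure D2:**
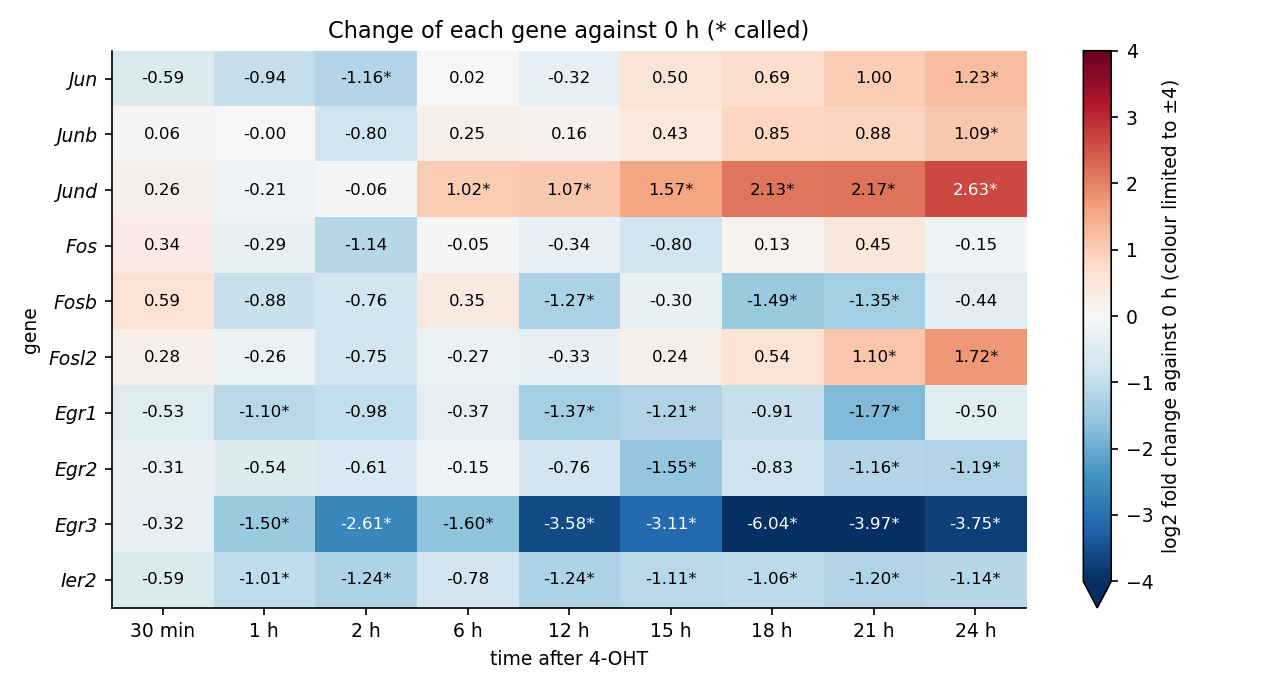
Log2 fold change of each gene (rows) at each time point (columns) against 0 h, with an asterisk for a called change and colour limited to ±4. Values at 1 and 2 h lie at or below 0 in every row, and at 24 h Jun, Junb, Jund and Fosl2 are called higher while Egr2, Egr3 and Ier2 are called lower.

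Over the time course, 9 of the 10 genes changed, Fos being the exception. Here the test was an F test of the 9 induced time points together (adjusted p-value below 0.01), and at least 1 of them had to differ by more than 2-fold. Of all genes tested, 51.9% passed. With 12 h, 18 h and 21 h left out, the number was 8, without Fosb. Junb did not pass with library totals alone, and Egr1 did not pass with DESeq2's test. Egr1 was also lost without replicate 1 at 0 h or 30 min, and without replicate 2 at 6 h, 12 h, 15 h or 21 h. In bulk samples, fewer cells transcribing a gene and less RNA per cell cannot be told apart.

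The JUN genes encode the partners that every classical AP-1 dimer needs, and c-JUN is the target after which the JNK kinases are named. All 3 were above their 0 h level at 24 h, Jund most, and with library totals alone Jun and Junb were above it by less than 2-fold. In replicates 1 and 2, in this order, Jund was at 1.12/1.08 CPM at 0 h, 1.38/1.27 at 30 min, 1.06/0.835 at 1 h, 0.939/1.16 at 2 h, 2.31/2.18 at 6 h, 2.3/2.34 at 12 h, 3.01/3.52 at 15 h, 4.69/4.96 at 18 h, 5.19/4.78 at 21 h, and 6.95/6.78 at 24 h. Every library from 6 h on lay above both libraries at 0 h, and the level stayed within the early range through 2 h. The log2 fold change of Jund was 1.02 at 6 h (SE 0.15, adjusted p = 3.78e-06), 2.13 at 18 h (SE 0.14, adjusted p = 2.13e-12) and 2.63 at 24 h (SE 0.14, adjusted p = 1.98e-14), a 6.21-fold rise. The 6 h value sits at the edge of the fold threshold: it was 0.99 with no filter on low counts, 1.00 without replicate 2 at 0 h and 0.98 without replicate 1 at 6 h, each of which ended the call.

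Jun fell before it rose. It was at 1.75/1.76 CPM at 0 h, 1.27/1.07 at 30 min, 0.786/1.06 at 1 h, 0.887/0.694 at 2 h, 1.77/1.79 at 6 h, 1.29/1.5 at 12 h, 2.76/2.21 at 15 h, 3.25/2.38 at 18 h, 3.66/3.37 at 21 h, and 4.09/4.15 at 24 h. All libraries at 30 min, 1 h and 2 h lay below 0 h, those at 6 h lay just above it, and those from 15 h on well above. The log2 fold change was -0.94 at 1 h (SE 0.21, adjusted p = 0.000549), short of the fold threshold, and -1.16 at 2 h (SE 0.22, adjusted p = 8.28e-05), and it reached 1.23 at 24 h (SE 0.16, adjusted p = 2.46e-07). Without replicate 2 at 2 h the 2 h value was -0.98 and no longer called, and without replicate 2 at 1 h the 1 h value was -1.15 and called. At 21 h Jun stood at 1.00, a 2-fold change that DESeq2's test called (1.02) and that was also called without replicate 2 at 21 h (1.06). With library totals alone the 24 h value was 0.97 and not called.

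Junb was flat for the first hour, dipped at 2 h and then climbed. Its levels were 2.74/3.18 CPM at 0 h, 3.03/3.12 at 30 min, 2.98/2.92 at 1 h, 1.88/1.53 at 2 h, 3.55/3.49 at 6 h, 3.28/3.31 at 12 h, 3.99/3.98 at 15 h, 5.37/5.27 at 18 h, 6/4.94 at 21 h, and 6.02/6.54 at 24 h. Both libraries at 2 h lay below every other library of the series, and those at 24 h above all others. The log2 fold change was -0.80 at 2 h (SE 0.14, adjusted p = 3.5e-05), within the 2-fold limit, and 1.09 at 24 h (SE 0.11, adjusted p = 7.44e-09). The 24 h call was lost with library totals alone (0.83) and without replicate 1 at 0 h (0.99), and without replicate 2 at 21 h the 21 h value of 0.88 became 1.02 and was called.

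**Figure D3:**
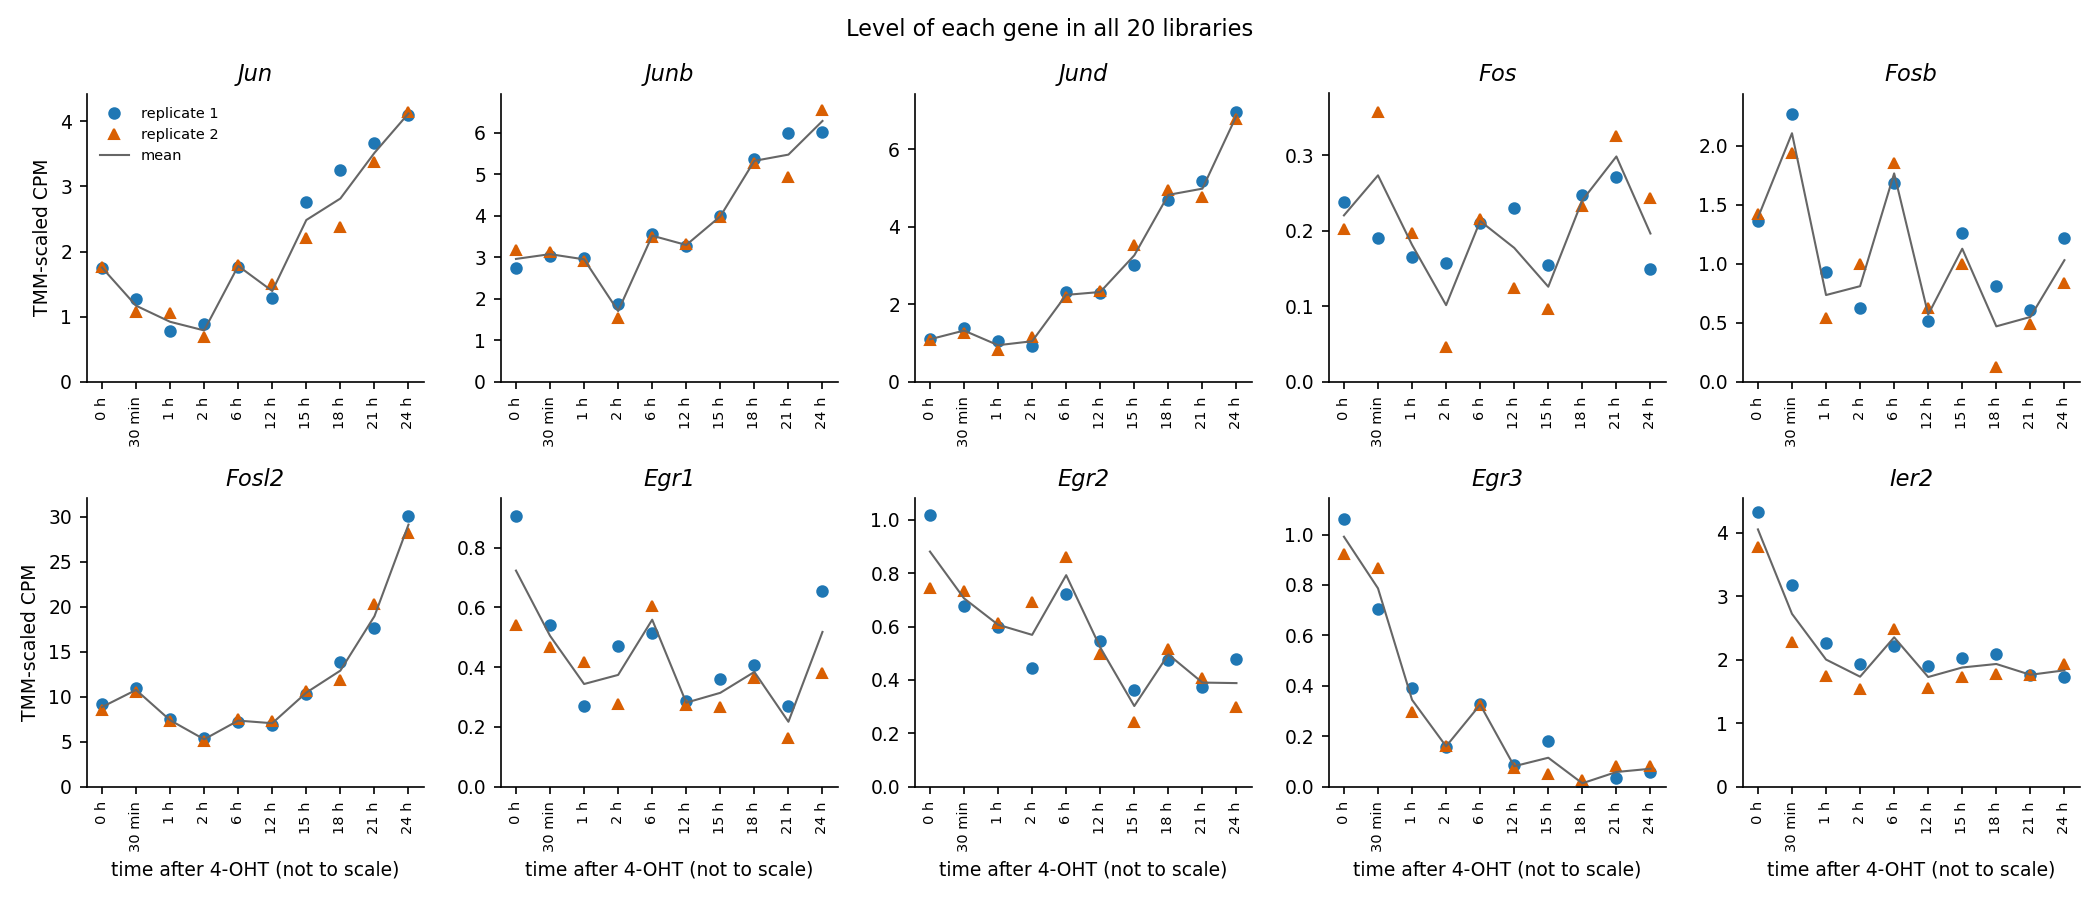
TMM-scaled CPM of each gene in all 20 libraries, with circles for replicate 1, triangles for replicate 2, a line through the means and time points spaced evenly. Jun, Junb and Fosl2 are lowest at 2 h and highest at 24 h, Jund climbs from 6 h on, Egr3 falls from about 1 CPM to near 0, and the replicates of Fosb at 18 h (0.812 and 0.129 CPM) lie far apart.

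The turn between 2 h and 6 h was shared by the JUN genes. Tested as a step from 2 h to 6 h in the same model, which does not use the 0 h libraries, Jun rose by 1.18 on the log2 scale (SE 0.22, adjusted p = 0.000116), Junb by 1.05 (SE 0.14, adjusted p = 1.49e-06) and Jund by 1.09 (SE 0.16, adjusted p = 7.6e-06). Fosb was the other gene of the 10 called higher in this step, where 3.91% of all genes tested were. The rise was not particular to these genes. The estimates of the remaining genes were also above 0, from 0.45 for Ier2 (adjusted p = 0.0475) to 1.09 for Fos (adjusted p = 0.106). Among them Fosl2, at 0.48 (adjusted p = 0.000536), missed the call by the fold alone. The half-maximal point of the rise to 24 h, interpolated linearly between means, lay at 16.4 h for Jund (16.8 and 15.9 h in the replicates), 16.4 h for Junb (15.9 and 17 h) and 18.5 h for Jun (16 and 19.8 h). Fosl2 came last at 21 h (21.5 and 20.3 h). Across the 20 libraries, log2 CPM correlated at 0.914 between Jun and Junb, 0.897 between Jun and Jund and 0.888 between Junb and Jund (Pearson's r), values that share libraries and the time course and are descriptions only.

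Parts of all 3 JUN genes are overlapped by another gene. The first 689 bases of Jun (chromosome 4 of GRCm38, 95049034 to 95052222, minus strand) lie within the antisense gene Junos, an overlap of 21.6% of the Jun span. Junos was at 5.22 ± 0.2 CPM at 0 h, with log2 fold changes of -0.84 at 2 h (adjusted p = 3.27e-06), -0.79 at 6 h (adjusted p = 3.54e-06) and 1.38 at 24 h (adjusted p = 1.16e-11), so that at 6 h, where Jun was back at its starting level, Junos was not. Junb (chromosome 8, 84974484 to 84978718, minus strand) shares 351 bases, 8.29% of its span, with the end of Prdx2, whose log2 fold change was 0.62 at 24 h (adjusted p = 1.95e-06). Jund (chromosome 8, 70698949 to 70700616, plus strand) contains the antisense gene Gm11175 over 55.1% of its span, and Gm11175 had 0 counts in all 20 libraries. The library kit marks strand but the sources used here do not say that the counting did. Reads shared by Jun and Junos or by Junb and Prdx2 may thus have been assigned to either gene or to neither. No read was assigned to Gm11175, so reads it shares with Jund were assigned to Jund or to neither. The counts cannot tell these apart, so Jund may have lost reads over the shared stretch.

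Jund and Ier2 have the shortest annotated spans of the 10 in GENCODE, 1668 and 1522 bases. The RefSeq start of Jund lies 1210 bases upstream of the GENCODE start, and from there its span is 2878 bases, in the class of 2 to 5 kb. At 24 h the 1372 genes tested with spans under 2 kb had a median log2 fold change of 0.35, with 28.2% called higher and 14.8% lower, beside a median of -0.16 for genes of 2 to 5 kb and for genes of 5 to 25 kb and 0.10 for longer ones. By its GENCODE span Jund moved with the shortest class and Ier2 against it. The part of gene length in these values was not tested, and the length classes were chosen after seeing the data.

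The FOS genes encode proteins that bind DNA only with a JUN partner, and no difference between the 3 followed here was tested. Fosl1, a further FOS gene, was counted among the other AP-1 partners below and was named after its values were seen. It averaged 0.797 CPM and was called lower at every time from 6 h (-1.15, adjusted p = 0.000128) to 24 h (-3.39, adjusted p = 1.08e-08). Fosl2, the FOS-related gene with most counts here, was at 9.2/8.49 CPM at 0 h, 11/10.5 at 30 min, 7.51/7.25 at 1 h, 5.4/5.11 at 2 h, 7.19/7.48 at 6 h, 6.81/7.28 at 12 h, 10.3/10.6 at 15 h, 13.9/11.9 at 18 h, 17.6/20.3 at 21 h, and 30.1/28.2 at 24 h. It was lowest at 2 h in both replicates and its libraries at 24 h lay above those at 21 h. The log2 fold change of Fosl2 was -0.75 at 2 h (SE 0.099, adjusted p = 1.05e-06), within the 2-fold limit, 1.10 at 21 h (SE 0.085, adjusted p = 8.82e-11) and 1.72 at 24 h (SE 0.081, adjusted p = 1.53e-14), a 3.29-fold rise. The 21 h call was lost with library totals alone (0.87) and without replicate 2 at 21 h (0.99). Its 24 h call held in every alternative run.

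Fosb had 2 falls and 1 rise that passed the test between neighbouring time points. It had 63/63 counts at 0 h, 84/87 at 30 min, 45/22 at 1 h, 24/43 at 2 h, 72/86 at 6 h, 18/25 at 12 h, 49/41 at 15 h, 36/5 at 18 h, 18/18 at 21 h, and 41/31 at 24 h. Scaled for depth, both libraries at 30 min and 6 h lay above 0 h, and those at all other times below. As steps, the fall from 30 min to 1 h was -1.48 on the log2 scale (SE 0.33, adjusted p = 0.000567), the rise from 2 h to 6 h was 1.11 (SE 0.33, adjusted p = 0.00707) and the fall from 6 h to 12 h was -1.62 (SE 0.38, adjusted p = 0.000949). The values above 0 h themselves, 0.59 at 30 min (adjusted p = 0.173) and 0.35 at 6 h (adjusted p = 0.275), did not pass the test.

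Against 0 h, Fosb was called lower at 12 h (-1.27, SE 0.39, adjusted p = 0.00452), 18 h (-1.49, SE 0.4, adjusted p = 0.00109) and 21 h (-1.35, SE 0.42, adjusted p = 0.00349), and stood at -0.44 at 24 h (adjusted p = 0.227). Each of these calls hung on single libraries. At 18 h the replicates held 0.812 and 0.129 CPM, and without replicate 2 at 18 h the value was -0.77 with an adjusted p-value of 0.0209. At 12 h the call was lost without any 1 of the 4 libraries compared, replicate 1 or 2 at 0 h (-1.30 and -1.24) or at 12 h (-1.15 and -1.42), and likewise at 21 h without replicate 1 or 2 at 0 h (-1.38 and -1.32) or at 21 h (-1.50 and -1.18). At 18 h the call was also lost in a model of only the 4 libraries compared (adjusted p = 0.0149). Fosb (chromosome 7, 19302696 to 19310051, minus strand) is the only gene of the 10 called in all 3 of the steps named here.

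Fos, the founding gene of the family and the one best known for its burst after serum, was close to silent throughout. It had 2 to 16 counts in any library and 163 in all 20 together, 0.22 ± 0.0247 CPM at 0 h and 0.101 to 0.299 CPM as means over the time points. Its lowest value, at 2 h, rested on 6 and 2 counts (log2 fold change -1.14, SE 0.57, adjusted p = 0.0756), and its F test over the time course gave an adjusted p-value of 0.143. At this depth the level at 24 h was 90.2% of that at 0 h with a 95% counting interval of 42.2% to 188%. A change within about 2-fold could thus not be told from none by counting alone. Larger changes could be missed by the calling rule too, as the 2.21-fold fall at 2 h was not called.

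The log2 fold changes of the EGR genes and Ier2 were below 0 at all 9 time points, though those of Egr1 and Egr2 at 6 h turned to 0.05 and 0.10 without replicate 1 at 0 h. Egr3, which encodes a zinc finger factor induced by antigen receptor signals in lymphocytes, was the most strongly reduced of the 10. It had 49/41 counts at 0 h, 26/39 at 30 min, 19/12 at 1 h, 6/7 at 2 h, 14/15 at 6 h, 3/3 at 12 h, 7/2 at 15 h, 0/1 at 18 h, 1/3 at 21 h, and 2/3 at 24 h. Every library from 30 min on held less than either 0 h library once scaled for depth, and from 12 h on no library held more than 7 counts. As a share of the 0 h level, Egr3 was at 35.1% at 1 h (95% counting interval 22.5% to 53.3%), 16.1% at 2 h (8.24% to 28.9%), 32.8% at 6 h (20.8% to 50.3%), 8.07% at 12 h (2.89% to 18.3%) and 7.16% at 24 h (2.27% to 17.3%).

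The fall of Egr3 was called at every time from 1 h on. The log2 fold change was -1.50 at 1 h (SE 0.29, adjusted p = 0.000113), -2.61 at 2 h (SE 0.41, adjusted p = 9.08e-07), -1.60 at 6 h (SE 0.3, adjusted p = 3.53e-05) and -3.75 at 24 h (SE 0.62, adjusted p = 5.46e-08). At 18 h, where 1 count was left, the level was 1.21% of that at 0 h with an interval of 0.0304% to 6.94%, and the fitted fold there depends on the prior count. The steps from 30 min to 1 h (-1.18, SE 0.31, adjusted p = 0.00258) and from 6 h to 12 h (-1.98, SE 0.6, adjusted p = 0.00463) were called. Egr3 and Fosb were the genes of the 10 called lower in these steps, in which 3.08% and 2.11% of all genes tested were called lower. The half-maximal point of the fall lay at 0.822 h (0.781 and 0.844 h in the replicates). Under the requirement of at least 10 counts in every library, Egr3 could not be tested.

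Ier2, a small nuclear protein gene induced together with Fos and Egr1 by growth factors, fell early and then stayed down. Its levels were 4.32/3.78 CPM at 0 h, 3.17/2.27 at 30 min, 2.26/1.74 at 1 h, 1.93/1.53 at 2 h, 2.22/2.48 at 6 h, 1.9/1.55 at 12 h, 2.03/1.72 at 15 h, 2.08/1.78 at 18 h, 1.76/1.76 at 21 h, and 1.73/1.93 at 24 h. All 18 libraries after 0 h lay below both 0 h libraries. The log2 fold change was -0.59 at 30 min (SE 0.15, adjusted p = 0.00905), which passed the adjusted p-value but not the fold, -1.01 at 1 h (SE 0.16, adjusted p = 1.43e-05) and -1.24 at 2 h (SE 0.17, adjusted p = 1.29e-06). It then ran between -0.78 at 6 h (adjusted p = 0.000102) and -1.24 at 12 h (adjusted p = 1.06e-06), and was -1.14 at 24 h (adjusted p = 2.38e-06). The 1 h call was lost without replicate 1 at 0 h (-0.91) or replicate 2 at 1 h (-0.85), and the 18 h call (-1.06) without replicate 1 at 0 h (-0.96) or replicate 2 at 18 h (-0.97), each by the fold threshold alone. The half-maximal point of the fall lay at 0.438 h (0.578 and 0.373 h in the replicates), around the first induced time point.

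Egr1 was called lower at 4 of the 9 time points and Egr2 at 3, with few counts. Egr1 had 42/24 counts at 0 h, a gap that all of its calls depend on, then 20/21 at 30 min, 13/17 at 1 h, 18/12 at 2 h, 22/28 at 6 h, 10/11 at 12 h, 14/11 at 15 h, 18/14 at 18 h, 8/6 at 21 h, and 22/14 at 24 h. Scaled for depth, its libraries overlapped those at 0 h at 30 min, 6 h and 24 h and lay below them at the other times. Egr1 was called lower at 1 h (-1.10, SE 0.34, adjusted p = 0.00878), 12 h (-1.37, SE 0.38, adjusted p = 0.00206), 15 h (-1.21, SE 0.36, adjusted p = 0.00348) and 21 h (-1.77, SE 0.45, adjusted p = 0.000418), and stood at -0.50 at 24 h (adjusted p = 0.153). Without replicate 1 at 0 h none of these held, with values of -0.67, -0.94, -0.78 and -1.34. The 1 h call was also lost without replicate 1 or 2 at 1 h (-0.80 and -1.42), the 12 h call without replicate 1 or 2 at 12 h (-1.40 and -1.33), the 15 h call without replicate 2 at 15 h (-1.02) and the 21 h call without replicate 2 at 21 h (-1.41). Without replicate 2 at 0 h it was called at 2 h (-1.29) and 18 h (-1.23) as well. DESeq2's test called it only at 21 h among the 4 times (adjusted p = 0.0564 at 1 h, 0.0133 at 12 h and 0.0245 at 15 h).

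Egr2, which carries the CArG boxes shown above, had 47/33 counts at 0 h, 25/33 at 30 min, 29/25 at 1 h, 17/30 at 2 h, 31/40 at 6 h, 19/20 at 12 h, 14/10 at 15 h, 21/20 at 18 h, 11/15 at 21 h, and 16/11 at 24 h. Scaled for depth, its libraries overlapped those at 0 h at 6 h only. It was called lower at 15 h (-1.55, SE 0.32, adjusted p = 7.01e-05), 21 h (-1.16, SE 0.31, adjusted p = 0.00104) and 24 h (-1.19, SE 0.3, adjusted p = 0.000732). The 15 h call held in every alternative run. At 21 h the call was lost without replicate 1 at 0 h (-0.92) and with DESeq2's test (adjusted p = 0.0133), and at 24 h without replicate 1 at 0 h (-0.95), without replicate 2 at 24 h (-0.88) and with DESeq2's test (adjusted p = 0.0105), while without replicate 2 at 0 h it was also called at 18 h (-1.03). As shares of the 0 h level at 24 h, Egr2 was at 43.5% (95% counting interval 27% to 68%), Egr1 at 70.3% (45.5% to 107%) and Egr3 at 7.16%, so that the interval of Egr3 lay below those of both others.

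The partners and regulators of these factors were taken from lists of related genes. For comparison with the counts below, 51.9% of all genes tested changed over the time course. At 24 h 20% of all genes were called higher and 20.1% lower. Of 18 genes for other AP-1 partners, 16 were tested and 10 changed over the time course, with 2 called higher and 6 lower at 24 h and a median log2 fold change of -0.72. Jdp2, which encodes a repressing partner of JUN, fell from 26.6 ± 1.28 CPM to 1.01 ± 0.108 CPM at 18 h (-4.71, SE 0.21, adjusted p = 3.72e-17). Atf3, a stress-induced ATF gene, fell from 7.76 ± 0.599 to 0.81 ± 0.0896 CPM at 15 h (-3.25, SE 0.18, adjusted p = 1.13e-14). Both had already been called lower at 1 h, at -2.67 and -1.96, when 2 of the 16 genes and 4.84% of all genes tested were. Bach2, a repressor of B cells that pairs with small MAF proteins and competes for AP-1 sites, rose from 507 ± 2.41 to 5658 ± 220 CPM at 24 h (3.48, SE 0.045, adjusted p = 2.47e-23), and Nfe2 fell to 0.856 ± 0.325 CPM (-1.86, SE 0.26, adjusted p = 2.51e-07).

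Of 4 relatives of the EGR genes, 2 were tested and 1 changed over the time course. That gene was Nab2, which encodes a corepressor bound by EGR proteins and was named after its values were seen, with -1.03 at 2 h and -0.69 at 24 h. All 9 SRF and CREB factors were tested and 3 changed. Elk3, a partner of SRF, fell from 145 ± 0.625 to 50.7 ± 0.546 CPM at 1 h (-1.52, SE 0.061, adjusted p = 1.32e-14), was already called at 30 min (-1.14) and was back to -0.24 at 24 h. Crem, a CREB relative, rose from 26.2 ± 1.38 to 84 ± 0.497 CPM at 21 h (1.68, SE 0.063, adjusted p = 3.27e-16), and Elk4 rose to 117 ± 5.08 CPM at 24 h (1.15, SE 0.041, adjusted p = 1.54e-16).

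Genes of the ERK, JNK and p38 kinase pathways mostly kept within 2-fold. Of 19 listed, 18 were tested and 4 changed over the time course, with 2 called at 24 h, both lower. The 4 were Map2k3, which encodes an activator of p38 (51.5 ± 0.837 to 10.3 ± 0.301 CPM at 24 h, -2.33, SE 0.073, adjusted p = 7.89e-18), Mapk14, which encodes p38 itself (-1.40 at 18 h, SE 0.051, adjusted p = 2.78e-16), Map2k2, an ERK activator (-1.05 at 18 h, SE 0.076, adjusted p = 3.88e-11), and Rps6ka1, a kinase downstream of ERK (1.08 at 15 h, SE 0.1, adjusted p = 5.56e-09). The median log2 fold change of the 18 was 0.23 at 24 h.

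**Figure D4:**
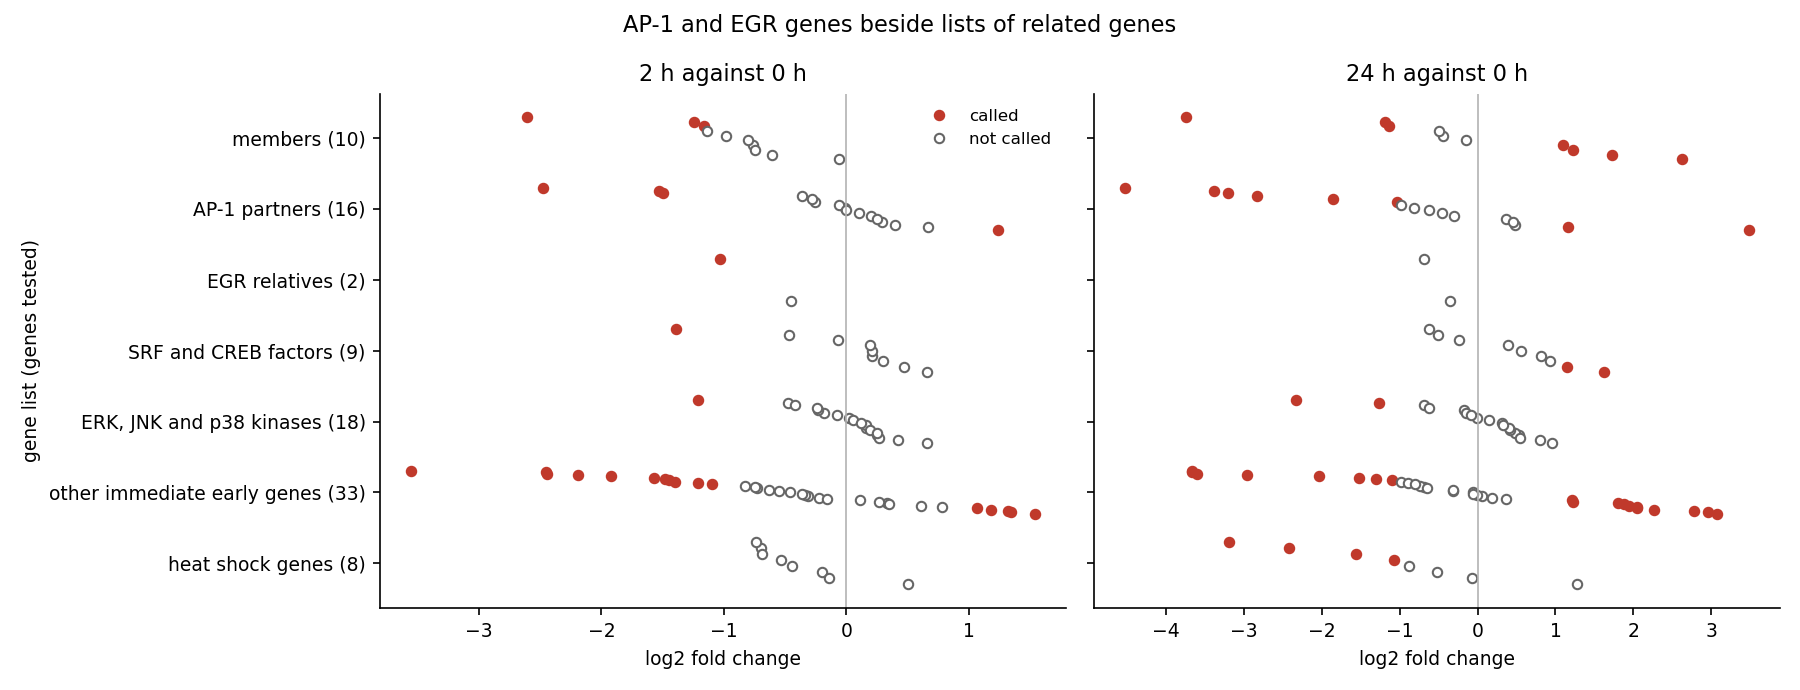
Log2 fold change against 0 h at 2 h (left) and 24 h (right) for the 10 genes and 6 lists of related genes, with 1 point for each gene tested, filled where called. At 2 h all 10 genes lie below 0, while 5 of the 33 other immediate early genes are called higher and 11 lower. At 24 h those numbers are 11 and 8. Of all genes tested, 6.25% were called higher and 6.91% lower at 2 h, and 20% and 20.1% at 24 h.

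The wider group of immediate early genes moved in both directions. Of 42 listed, 33 were tested and 26 changed over the time course. At 30 min 1 was called higher and 4 lower, at 2 h 5 and 11, and at 24 h 11 and 8, with a median log2 fold change of -0.46 at 2 h and -0.06 at 24 h. Phlda1 fell from 4.03 ± 0.412 to 0.224 ± 0.163 CPM at 21 h (-4.23, SE 0.4, adjusted p = 2.71e-12) and Plk3, a stress-induced kinase gene, from 6.74 ± 0.463 to 0.426 ± 0.164 CPM at 18 h (-3.95, SE 0.27, adjusted p = 5.58e-14). Myc, a growth-promoting factor that is itself a target of mitogen signals, fell from 62.9 ± 1.06 to 4.97 ± 0.813 CPM at 24 h (-3.67, SE 0.13, adjusted p = 1.54e-17), and Nfkbia, the inhibitor of NF-kB, rose from 1.76 ± 0.0107 to 14.9 ± 0.98 CPM (3.07, SE 0.12, adjusted p = 9.42e-17). Heat shock genes summed to 389 and 391 CPM at 0 h, 268 to 271 CPM at 2 h and 132 to 134 CPM at 24 h. Most of the 0 h sum came from Hspa8, Hspd1 and Hsp90aa1 (130 ± 2.32, 124 ± 0.26 and 75.3 ± 2.2 CPM), so it says little about the other genes listed. Hspa1a and Bag3, with 45 and 2 counts in all 20 libraries, were not tested. Of 8 tested, 4 were called lower at 24 h (Hspa8, Hspe1, Hspd1 and Hsp90aa1). All 8 stayed within the 2-fold limit at 2 h, where Hspa8 stood at -0.74 (adjusted p = 2.17e-08) and Hspd1 at -0.53 (adjusted p = 3.31e-07). Hspa1b was called higher at 15 h and 21 h, from 0.121 ± 0.0432 CPM at 0 h to 0.349 ± 0.0207 CPM (adjusted p = 0.00753) and 0.387 ± 0.0673 CPM (adjusted p = 0.00364). The part of handling stress in the members' values was not tested.

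The genes whose log2 CPM most resembled that of each member over the 20 libraries were searched among the 12056 genes averaging at least 1 CPM, for members that reach that level themselves. For Jund they were Ifi204, Zbtb10 and Stpg2 (Pearson's r 0.988, 0.987 and 0.985), for Jun Mindy1, Rinl and Fyn (0.983, 0.973 and 0.972) and for Junb Hdac9, Cnot7 and Prkra (0.96, 0.949 and 0.945). For Fosl2 they were E230016M11Rik, Ccs and Tle6 (0.973, 0.969 and 0.96), for Ier2 Zdhhc13, Ppp1r18 and Lta (0.894, 0.89 and 0.889) and for Fosb Prkcsh, Cers5 and Abhd2 (0.855, 0.849 and 0.838). The highest likeness for Fosb was thus below that for the JUN genes. These libraries share the time course and the depth of each library, and the values are descriptions of likeness in pattern.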

How the data were processed

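Chromatin-associated RNA was sequenced in 20 libraries (directional, rRNA-depleted, paired-end). The authors aligned the reads to GRCm38 with nf-core/rnaseq and STAR and deposited raw counts per gene from featureCounts, intronic reads included. The annotation release and the strand setting are not given in the sources used here. Columns were matched to samples by name and samples to time points by the labels. The members and lists were chosen with earlier results of these data known.

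Genes with 10 or more counts in 2 or more libraries were fitted with edgeR 4.0.16 in R 4.3.3 by its quasi-likelihood test with TMM factors, in 1 model of all 20 libraries with time as a factor, with Benjamini-Hochberg adjustment over all 16601 genes. Standard errors are Wald errors of that model. DESeq2 1.42.0 was the alternative test. In simulated counts for 24 h against 0 h, 200 of 16601 genes were changed, drawn from those above a minimum expected count. Of genes changed 2.5-fold 80.6% were called, of those changed 4-fold 92.8% and of those changed 8-fold 90.6%, with 1 of the others. These rates pool genes of all levels, so they do not give the rate for genes with few counts. Counting intervals are exact binomial at 95%, and the floor is 3 counts. Spans and overlaps came from GENCODE M21, which named 55154 of the gene identifiers, and promoters from RefSeq. Motifs were searched as strings.

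Named genes were all 10 members, from each list up to 4 called genes with the largest change among those averaging at least 1 CPM, and for each member averaging at least 1 CPM the 3 genes most alike. Of the marker and heat shock lists any gene could be named. Alternatives were other size factors, library totals, no filter, at least 10 counts in every library, DESeq2, a replicate block, an adjusted p-value under 0.05, only the 4 libraries compared, and leaving out each library. Leaving out 12 h, 18 h and 21 h was added after seeing the data. Where 1 library of a time point was left, it was assumed to vary like the other groups.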

Additional observations from a re-analysis of the deposited data

How the results depend on the processing

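Counts per library ran from 2 to 16 for Fos, 5 to 87 for Fosb, 6 to 42 for Egr1, 10 to 47 for Egr2 and 0 to 49 for Egr3, which limits the precision of their values. Numbers of members called kept within 1.5 times in all alternatives but the following. With at least 10 counts in every library, under which Fos, Fosb, Egr1 and Egr3 could not be tested, they were 1 in place of 3 at 1 h, 1 in place of 2 at 6 h, 2 in place of 5 at 12 h, 3 in place of 5 at 15 h and 2 in place of 4 at 18 h, and with no filter 1 at 6 h. For all genes that filter lowered the number called by over 1.5 times at several times (at 6 h 1047 higher and 882 lower, in place of 1814 and 1516), with fewer genes tested, and an adjusted p-value under 0.05 gave 25 genes higher at 30 min in place of 9. Leaving out single libraries gave 1 to 3 at 1 h, 1 to 2 at 6 h, 3 to 4 at 12 h, 2 to 6 at 18 h and 4 to 6 at 21 h, always below the 5 at 12 h and the 7 at 21 h of all libraries, and 7 to 9 members changed over the time course (7, without Junb and Egr1, when replicate 1 at 0 h was left out).

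With single libraries left out, the log2 fold change of Fos ran from -0.21 to 0.69 at 30 min, -0.16 to 0.07 at 6 h, -0.81 to 0.06 at 12 h and -0.55 to 0.15 at 24 h. That of Junb ran from -0.04 to 0.17 at 30 min and -0.10 to 0.11 at 1 h (0.01 without replicate 2 at 1 h), of Jund from -0.23 to 0.07 at 2 h, of Egr1 from -0.69 to 0.05 at 6 h and of Egr2 from -0.35 to 0.10 at 6 h. None of these was called. Jun at 6 h was at -0.01 with no filter. Of 360 values with a library left out, 31 lost a call, 6 gained one and 10 changed sign, while DESeq2's test lost 5 of 90 and gained 1, and library totals lost 3 and gained 1. The cause was not tested.

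Replicate numbers showed no pairing in one direction on average. Over 9284 genes the deviations of same-numbered libraries correlated at a mean of 0.0195 over 45 pairs of time points, from -0.625 to 0.418, with 16 over 0.1. Values of both signs cancel in this mean, so it cannot show whether libraries shared a factor across the numbers, which was not tested. With the replicate block, 8 members in place of 7 were called at 21 h, through Jun (1.00, adjusted p = 1.65e-05), and the other numbers were the same.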
